A study of Homo sapiens with 24 samples.

Results

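Transcription factors of the sensory neuron lineage, 10 of the 36468 entries in the count table, were followed across cytokine-treated cultures of stem cell-derived sensory neurons. They were picked by gene symbol, with no measured value in the rule, though earlier results of these data were known. NEUROG1, NEUROG2 and NEUROD1 were taken as 3 early neurogenic factors. POU4F1, ISL1, RUNX1, RUNX3, PRDM12, DRGX and TLX3 were taken as 7 factors of mature or subtype-committed neurons. Each symbol had 1 entry, and all 10 passed the filter of at least 10 counts in total, which 29377 entries passed.

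Sensory neurons of the body and head arise from neural crest cells and placodes. The basic helix-loop-helix factors NEUROG1 and NEUROG2 commit progenitors to the neuronal fate and are shut off as cells leave the cycle, and NEUROD1 acts after them. The homeodomain factors ISL1 and POU4F1, the latter also known as BRN3A, are then switched on in nearly all somatic sensory neurons and remain on. PRDM12, DRGX and TLX3 belong to the nociceptor programme, RUNX1 acts in the division of nociceptors into subtypes, and RUNX3 is the factor of proprioceptors. RUNX1 is also found outside neurons, in blood-forming and mesenchymal cells.

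The cultures came from H9, labelled H9WAO9, an established human embryonic stem cell line of wild-type genotype. They were taken through vagal neural crest spheroids to sensory neurons, matured and treated, for 5 days with the agents whose duration the labels give. The 4 groups were vehicle (0.1% bovine serum albumin in PBS), TGF-β at 2 ng/ml, IL-4 at 10 ng/ml with IL-13 at 3 ng/ml, and IL-6, whose dose and duration the labels do not give. Each of 6 batches of differentiation gave 1 library per group, 24 in all, so the groups share batches and every comparison with vehicle shares the same 6 vehicle libraries. All groups are 1 cell line, and p-values describe the spread over its differentiations. The cultures were sequenced whole, and they hold other cells beside neurons.

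Library totals lay between 33342682 and 39817784 counts. The 12 pan-neuronal markers summed to 2077 to 10440 CPM (counts scaled to library size by TMM), with TUBB3 at 225 to 1258 CPM. The 10 mesenchymal markers summed to 2687 to 13466 CPM in the same libraries, and the Schwann cell factor SOX10 averaged 0.307 CPM. The vehicle library of batch 2 stood apart from the rest of its batch. Its deviations from the group means correlated at a mean r of 0.03 with those of its own batch and of 0.45 with those of batch 4, over 20962 genes. The vehicle library of batch 4 likewise had a mean r of 0.16 with its own batch and of 0.42 with batch 2. Whether these 2 libraries were exchanged cannot be told from these data, and they were kept as labelled.

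POU4F1 lies on chromosome 13 (78598362 to 78603552 of GRCh38.p14, minus strand), ISL1 on chromosome 5 (51383448 to 51394730, plus strand) and DRGX on chromosome 10 (49364066 to 49396089, minus strand). The 250 bases before their annotated starts are shown because these factors moved together between batches. TLX3 moved with them, but its window is not shown and held 0 E-boxes. Matches to the E-box CANNTG, the motif of basic helix-loop-helix factors, are in capitals on the gene's strand.
POU4F1 (chr13:78603553-78603802, minus strand): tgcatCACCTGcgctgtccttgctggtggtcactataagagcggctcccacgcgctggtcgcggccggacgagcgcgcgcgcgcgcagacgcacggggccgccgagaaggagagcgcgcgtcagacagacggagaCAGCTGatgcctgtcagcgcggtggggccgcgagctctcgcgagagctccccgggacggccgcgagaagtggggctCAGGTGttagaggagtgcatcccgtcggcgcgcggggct
ISL1 (chr5:51383198-51383447, plus strand): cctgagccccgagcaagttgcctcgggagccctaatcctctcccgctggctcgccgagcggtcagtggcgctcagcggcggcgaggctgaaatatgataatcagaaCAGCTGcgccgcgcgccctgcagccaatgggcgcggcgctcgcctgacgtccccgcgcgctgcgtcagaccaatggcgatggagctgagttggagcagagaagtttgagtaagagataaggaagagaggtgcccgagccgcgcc
DRGX (chr10:49396090-49396339, minus strand): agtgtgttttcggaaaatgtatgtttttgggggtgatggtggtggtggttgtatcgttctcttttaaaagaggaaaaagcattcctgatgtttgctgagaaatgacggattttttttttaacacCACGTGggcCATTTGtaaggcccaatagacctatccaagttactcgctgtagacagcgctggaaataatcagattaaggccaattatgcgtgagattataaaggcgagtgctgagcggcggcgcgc

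RUNX1 lies on chromosome 21 (34787801 to 35049302, minus strand) and NEUROG1 on chromosome 5 (135534282 to 135535964, minus strand). Their promoters are shown because they were the only members called in a comparison of treatments. RUNX1 has more than 1 start, the window belongs to an internal one, and counts per gene do not separate them. Neither window holds an E-box, so neither has capitals.
RUNX1 (chr21:34888700-34888949, minus strand): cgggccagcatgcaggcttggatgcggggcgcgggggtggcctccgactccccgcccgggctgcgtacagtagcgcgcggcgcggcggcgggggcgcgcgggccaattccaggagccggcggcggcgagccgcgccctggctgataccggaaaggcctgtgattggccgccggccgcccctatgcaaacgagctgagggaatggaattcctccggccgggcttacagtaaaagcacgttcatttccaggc
NEUROG1 (chr5:135535965-135536214, minus strand): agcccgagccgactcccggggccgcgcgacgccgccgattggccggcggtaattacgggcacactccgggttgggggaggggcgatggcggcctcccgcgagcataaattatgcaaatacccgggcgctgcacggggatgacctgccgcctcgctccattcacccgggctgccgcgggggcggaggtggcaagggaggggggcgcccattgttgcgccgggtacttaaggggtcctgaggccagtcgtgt

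All 10 members had a RefSeq promoter of GRCh38.p14. The POU4F1 window held 3 E-boxes, DRGX 2, ISL1 1 and RUNX3 1, and the other 6 windows held 0. Of all 35116 promoter windows of this length, 61.8% held an E-box. The SMAD motif CAGACA, searched on both strands like the others, was in the POU4F1 window and in 13.6% of all windows, and the STAT motif TTCNNNNGAA was in no member's window and in 5.38% of all. The RUNX motif TGTGGT had 2 matches in the RUNX3 window and was in 10.98% of all windows. These matches are letters in the reference and were not tied to any binding measurement.

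Of the remaining members, NEUROG2 lies on chromosome 4 (112513516 to 112516180), NEUROD1 on chromosome 2 (181668295 to 181680517), RUNX3 on chromosome 1 (24899511 to 24965138), PRDM12 on chromosome 9 (130664594 to 130682983) and TLX3 on chromosome 5 (171309248 to 171312139). NEUROG2, POU4F1, RUNX1 and RUNX3 overlap antisense or other non-coding genes. The strandedness of the counting is not stated, so reads of the overlaps cannot be assigned.

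Mature factors ranked highest in the vehicle cultures. Per exon length (RPKM, means ± SD of 6 vehicle libraries), ISL1 was highest at 19.2 ± 13.96, followed by DRGX at 8.84 ± 6.33, POU4F1 at 5.54 ± 3.92 and TLX3 at 2.62 ± 1.31. PRDM12 stood at 1.02 ± 0.60 and RUNX1 at 0.753 ± 0.385. The 3 early factors and RUNX3 lay at the bottom, with NEUROG2 at 0.252 ± 0.180, NEUROD1 at 0.207 ± 0.115, RUNX3 at 0.134 ± 0.078 and NEUROG1 at 0.131 ± 0.127. In whole cultures, fewer cells of a type and less RNA per cell cannot be told apart.

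The upper part of this order held batch by batch. ISL1 exceeded DRGX in 6 of 6 batches, by 1.22 ± 0.39 on the log2(RPKM + 0.1) scale, DRGX exceeded POU4F1 in 6 of 6 by 0.60 ± 0.37, and TLX3 exceeded PRDM12 in 6 of 6 by 1.21 ± 0.68 (SD). The gaps between POU4F1 and TLX3 (0.77 ± 0.79) and between PRDM12 and RUNX1 (0.40 ± 0.94) were smaller than their spread. The last 4 members could not be ordered, since none of their neighbours differed beyond the spread. With the longest transcript in place of all exons, RUNX1 moved from rank 6 to rank 5, above PRDM12, and NEUROD1 from 8 to 7.

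Averaged over each class, the mature factors lay above the early ones by 2.93 ± 1.05 on the log2(RPKM + 0.1) scale in vehicle (SD, n = 6), from 1.67 in batch 1 to 4.06 in batch 3. The mean was 2.41 ± 1.48 under TGF-β, 1.92 ± 1.45 under IL-4+IL-13 and 2.08 ± 1.41 under IL-6. The treated libraries of batch 2 lay lowest in their groups, at 0.71, 0.13 and -0.14, against 3.99 in the vehicle library of that batch. Without batch 2 the group means were 2.71 in vehicle, 2.75 under TGF-β, 2.28 under IL-4+IL-13 and 2.52 under IL-6.

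**Figure D1:**
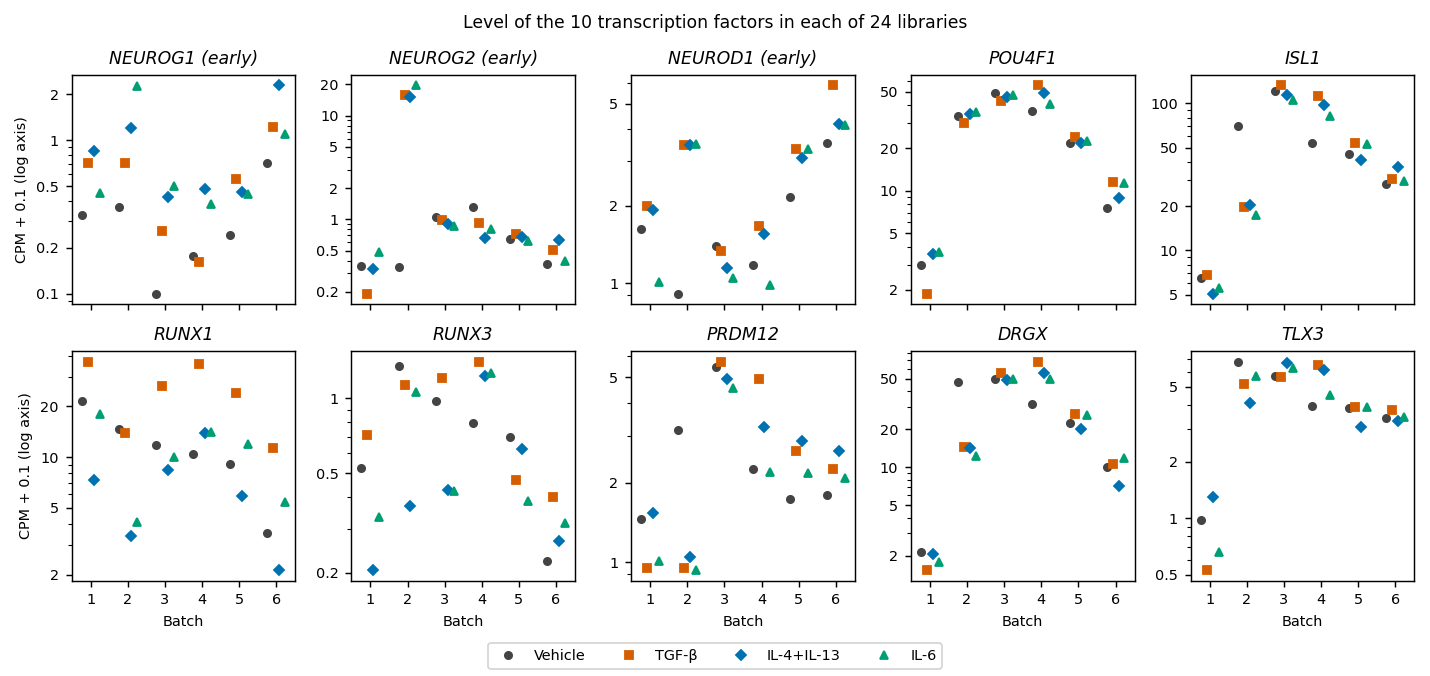
CPM + 0.1 on a log axis for each of the 10 factors, by batch of differentiation (x axis) and treatment (colour and shape), 1 point per library. POU4F1, ISL1, DRGX and TLX3 were lowest in the 4 libraries of batch 1, and NEUROG2 was highest in the 3 treated libraries of batch 2.

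Most members differed far more between batches than between treatments. All 10 differed between batches (edgeR, adjusted p from 7.2e-11 for POU4F1 to 0.0013 for RUNX3), as did 56.8% of all genes tested. Batch took 97.6% of the variance of POU4F1's log2 CPM over the 24 libraries and treatment 0.263%. For DRGX, ISL1 and TLX3, batch took 94.6%, 92.7% and 92.55%. RUNX1 was the one member for which treatment took more (45.5%) than batch (41.9%), and NEUROG1 came next with 30.6% and 55.04%.

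POU4F1 was lowest in batch 1, at 1.77 to 3.58 CPM in its 4 libraries, and highest on average in batch 3, at 42.7 to 48.6 CPM. ISL1 ran from 4.98 to 6.66 CPM in batch 1 to 105 to 133 CPM in batch 3. DRGX had 1.44 to 2.03 CPM in batch 1 and 49.4 to 55.2 CPM in batch 3, and TLX3 0.428 to 1.20 and 5.57 to 6.57 CPM. The ranges of batches 1 and 3 did not overlap for any of these 4 factors. Between their lowest and highest batch mean, POU4F1 spanned 15.7-fold, ISL1 20.2-fold, DRGX 28.8-fold and TLX3 7.81-fold.

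In batch 1, POU4F1, ISL1, DRGX and TLX3 lay below all 20 other libraries, 4 of 10 members against 6.62% of all genes tested. Of the 12 pan-neuronal markers, 11 did the same. Keratins KRT8, KRT18 and KRT19, 3 of 8 epithelial markers, lay above all others there, where 7.18% of all genes did. The summed epithelial markers were 562 to 1067 CPM in batch 1 and 293 to 429 CPM in batches 3 to 6. Most of this sum was KRT8 and KRT18, at 508 and 340 of 946 CPM in the vehicle library of batch 1. Among vehicle libraries, CDH1, CLDN4 and GRHL2 were also highest in batch 1. EPCAM went the other way and was lowest there, at 16.8 CPM against 27.9 to 43.6 CPM. ESRP1 was at most 0.17 CPM in any library. RUNX1 went the other way from POU4F1, ISL1, DRGX and TLX3 in batch 1, where it had its highest batch mean, 20.8 CPM. Its lowest, 5.50 CPM, was in batch 6, where it did not run against them. There POU4F1 (9.69 CPM) and DRGX (9.82 CPM) had batch means that were lower only in batch 1.

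Over the 6 batch means, 4 of the 10 members had an unadjusted p under 0.05 for the correlation with the mean log2 CPM of the pan-neuronal markers (exact two-sided permutation test), as did 26.9% of all genes tested. POU4F1 had a Pearson r of 0.97 (permutation p = 0.0014, the smallest that 6 batches allow) and a Spearman rho of 1.00. DRGX had an r of 0.99 (exact permutation p = 0.0042) and a rho of 0.94. TLX3 had an r of 0.97 (exact permutation p = 0.0042) and a rho of 0.94. ISL1 had an r of 0.96 (exact permutation p = 0.0083) and a rho of 0.83. Adjusted over all 29377 genes by Benjamini-Hochberg, none of the 4 passed (exact permutation adjusted p = 0.055 for POU4F1, 0.062 for DRGX and TLX3, and 0.079 for ISL1). Adjusted over the 10 members alone, these 4 passed by r (0.014, 0.014, 0.014 and 0.021) and only POU4F1 by rank (0.028). Leaving out 1 batch gave 0 to 6 members past that threshold, with 0 without batch 3 or batch 6.

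Batches 1 and 3 lay farthest from the median pan-neuronal level. Without them, over the 4 remaining batches, r was 0.95 for POU4F1, 0.98 for DRGX, 0.76 for ISL1 and 0.74 for TLX3. It was 0.94 for RUNX3, 0.93 for RUNX1, 0.34 for PRDM12, 0.27 for NEUROG2, -0.86 for NEUROG1 and -0.99 for NEUROD1, so these 4 batches did not set the 4 factors apart from the other members. Over all 6 batches the other 6 members did not pass, with r between -0.43 for NEUROG1 and 0.75 for PRDM12 (exact permutation unadjusted p between 0.086 and 0.81). Across all 24 libraries, which share batches, the 6 pairs among POU4F1, ISL1, DRGX and TLX3 had r between 0.85 and 0.96 as a description. PRDM12 was as close to ISL1 (r 0.85), and had r of 0.74 with DRGX, 0.59 with TLX3 and 0.57 with POU4F1.

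**Figure D2:**
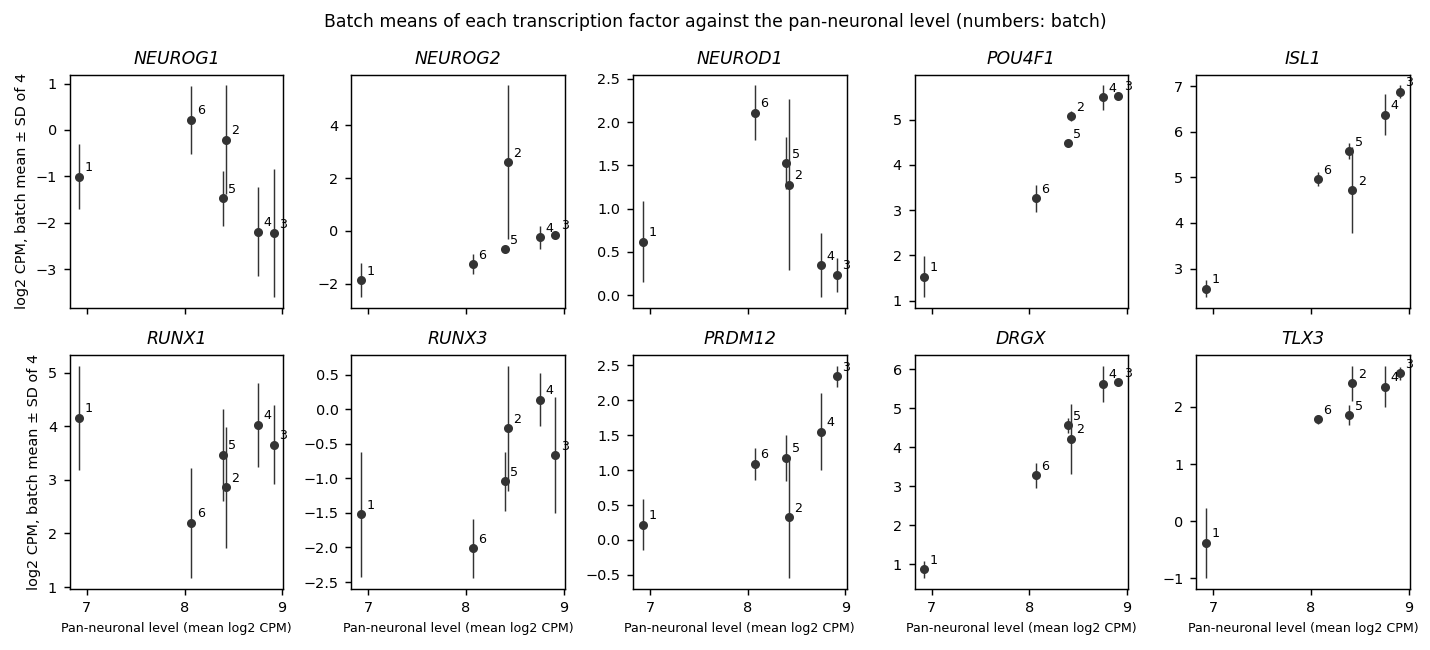
Mean log2 CPM of each factor per batch (y axis, bars are the SD of the 4 libraries) against the mean log2 CPM of 12 pan-neuronal markers (x axis), with the batch number beside each point. Over all 6 batches r was 0.97 for POU4F1, 0.99 for DRGX and -0.15 for RUNX1, whose highest point is batch 1.

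The genes most like these factors in level over the 24 libraries were named by the highest Pearson r of log2 CPM. For POU4F1 they were NTNG2, PID1 and CHRNB2, an acetylcholine receptor subunit (r 0.99, 0.98 and 0.98), and for DRGX DACT3, CDKN2D and the neurofilament gene NEFL (0.99, 0.98 and 0.98). For ISL1 they were the somatostatin gene SST, PRKCB and CDK5R2 (each 0.98). For TLX3 they were SYBU, TMEFF2 and EEF1A2 (each 0.96), and for PRDM12 MAP1LC3A, PIP4P2 and SYT9 (0.96, 0.96 and 0.95). RUNX1 stood closest to PMEPA1, the collagen gene COL1A1 and FRMD6 (0.96, 0.95 and 0.94). These are the highest of 14083 genes compared and carry no test.

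NEUROG2, the neurogenin of early sensory neurogenesis, was high in 3 libraries. In batch 2 it had 0.243 CPM in vehicle (9 counts), 15.9 CPM under TGF-β (542 counts), 15.03 CPM under IL-4+IL-13 (558 counts) and 19.7 CPM under IL-6 (638 counts). Every library of the other batches lay between 0.0916 and 1.20 CPM. The 3 treated libraries were 61.9 to 81.0 times the vehicle library labelled with their batch, and 12.5 to 16.3 times the vehicle library of batch 4, which held the 1.20 CPM.

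The same 3 libraries differed from their vehicle in other members. NEUROD1 had 3.34 to 3.39 CPM against 0.810, and NEUROG1 0.616 to 2.16 against 0.270. ISL1 had 17.3 to 20.2 CPM against 70.1, DRGX 12.2 to 14.3 against 47.3, and PRDM12 0.833 to 0.943 against 3.05. RUNX1 had 3.29 to 13.8 against 14.6, RUNX3 0.269 to 1.03 against 1.24, and TLX3 3.99 to 5.64 against 6.72. POU4F1, at 30.1 to 36.1 CPM, lay on both sides of its vehicle value of 33.9. The 3 early factors were thus higher and 6 of the 7 mature factors lower in each treated library than in this 1 vehicle library, whichever cytokine had been given. The share of all genes that did so was not counted. Against the vehicle library of batch 4 the early factors were again higher, and POU4F1, ISL1, DRGX and PRDM12 were lower (36.6, 53.8, 31.6 and 2.15 CPM there). TLX3 was then higher in the treated libraries (3.84 CPM there), and RUNX1 (10.3) and RUNX3 (0.692) lay on both sides.

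Other genes moved with this. Of 18 further neurogenic factors, 13 lay above all 21 other libraries in these 3, among them ATOH1, NEUROD4, NHLH1, INSM1 and HES6, where 9.03% of all genes tested did. All 8 proliferation genes did so, and their sum was 454 to 588 CPM against 98.6 CPM in the vehicle library of batch 2 and at most 202 CPM in batches 3 to 6. Of 18 Notch and progenitor genes, 5 did (NOTCH1, DLL1, DLL3, HES5 and SOX2). Of 8 pluripotency markers, POU5F1 and ZFP42 did not pass the filter on counts, and 2 of the 6 tested, DPPA4 and DNMT3B, also did. LIN28A (1.17 to 1.97 CPM against 3.27), TDGF1 (0.740 to 0.943 against 1.46) and L1TD1 (0.176 to 0.278 against 0.783) were lower in the 3 treated libraries than in their vehicle library, and NANOG was at 0 in all 4. Pan-neuronal markers summed to 6393 to 6784 CPM in the treated and 8586 CPM in the vehicle library, but did not all fall. TUBB3 (1007 to 1258 CPM against 831), ELAVL3 (193 to 202 against 129) and ELAVL4 (130 to 138 against 100) were higher in the treated libraries. DCX lay on both sides of its vehicle value, and the rest of the list was lower. Since 1 vehicle library stands against 3 treated ones, treatment and a difference between cultures of this batch cannot be told apart.

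Across the 6 batches NEUROG2 did not pass in any comparison with vehicle. Its fitted log2 fold change was 0.33 ± 0.61 (SE) under TGF-β, 0.34 ± 0.61 under IL-4+IL-13 and 0.43 ± 0.62 under IL-6 (edgeR, adjusted p = 0.98, 0.92 and 0.92). Without batch 2 the sign turned, to -0.18, -0.12 and -0.15.

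RUNX1 was the member with the clearest difference between treatments. Its lowest, median and highest CPM were 3.45, 11.01 and 21.4 in vehicle and 11.2, 25.002 and 36.7 under TGF-β. The corresponding values were 2.03, 6.52 and 13.7 with IL-4+IL-13, and 4.04, 10.9 and 17.8 with IL-6. The group ranges overlapped, and the order showed within batches. The TGF-β library lay above the IL-4+IL-13 library of its batch in 6 of 6 batches, by log2 differences of 1.37 to 2.43. The fitted log2 fold change of TGF-β against IL-4+IL-13 was 1.94 ± 0.27 (SE), or 3.84-fold (edgeR, adjusted p = 0.00027, DESeq2 adjusted p = 6.2e-11). RUNX1 was the 1 member of 10 called there, where edgeR called 1.18% of all genes and DESeq2 2.13%, and 4.29% were higher in 6 of 6 batches. Leaving out any 1 batch gave 1.84 to 2.10, with adjusted p at most 0.0043.

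Against vehicle RUNX1 pointed in opposite directions under the 2 treatments, without passing in the main test. Under TGF-β the log2 fold change was 1.03 ± 0.26 (SE, 95% interval 0.49 to 1.58, edgeR adjusted p = 0.12), higher in 5 of 6 batches. Batch 2 was the exception, at 13.8 CPM against 14.6 in its vehicle library, the library that stood apart. Without that vehicle library the value was 1.37 and was called (adjusted p = 0.0060), without that of batch 4 it was 0.88 (adjusted p = 0.17), and over batches 1, 3, 5 and 6 it was 1.23 (adjusted p = 0.026). Leaving out 1 batch, or 1 of these vehicle libraries, moved the value between 0.88 and 1.37, with edgeR adjusted p from 0.0060 to 0.49. DESeq2 called RUNX1 on all libraries (adjusted p = 0.0093). Of all genes tested, edgeR called 0.143% in this comparison and DESeq2 0.797%.

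Under IL-4+IL-13 RUNX1 had a log2 fold change of -0.91 ± 0.27 (SE, 95% interval -1.47 to -0.35, edgeR adjusted p = 0.20), lower in 5 of 6 batches and higher in batch 4. The value shrank to -0.57 without the vehicle library of batch 2 and was -1.08 without that of batch 4. DESeq2 gave an adjusted p of 0.033, short of the fold set for a call. Over batches 1, 3, 5 and 6 the adjusted p was 0.047 at -0.87, again short of it. Compared with IL-6, IL-4+IL-13 gave -0.70 ± 0.26, lower in 6 of 6 batches as for 2.07% of all genes, and was not called (adjusted p = 0.72), as 0.279% of all genes were. For IL-6 and vehicle the value was -0.20 ± 0.26 (adjusted p = 0.91), higher in 3 batches and lower in 3. TGF-β against IL-6 gave 1.24 ± 0.26, higher in 6 of 6 batches (edgeR adjusted p = 0.070, DESeq2 0.00050), and it was called by edgeR without the vehicle library of batch 2 (1.26, adjusted p = 0.0051). Of all genes tested, edgeR called 0.0306% and DESeq2 0.844% there, and 3.6% were higher under TGF-β than under IL-6 in 6 of 6 batches. Leaving out 1 batch, or the vehicle library of batch 2 or 4, gave RUNX1 1.16 to 1.30 in TGF-β against IL-6. The edgeR adjusted p then ran from 0.0051 to 0.40.

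RUNX3, its relative, had 4 to 46 counts per library. Its medians were 0.646 CPM in vehicle, 0.819 under TGF-β, 0.2997 under IL-4+IL-13 and 0.306 under IL-6. TGF-β against IL-4+IL-13 gave a log2 fold change of 0.99 ± 0.38 (SE, edgeR unadjusted p = 0.016, adjusted 0.23), higher in 5 of 6 batches, which did not pass.

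Mesenchymal markers were examined beside RUNX1, since COL1A1 was among the genes most like it. COL1A1 in TGF-β cultures exceeded that in IL-4+IL-13 cultures in 6 of 6 batches (log2 fold change 1.31 ± 0.26, edgeR adjusted p = 0.0068), the 1 of 10 mesenchymal markers that passed in that comparison. The summed markers ranged from 4195 to 13466 CPM under TGF-β, 2687 to 6341 CPM under IL-4+IL-13, 3512 to 8335 CPM under IL-6 and 3241 to 10576 CPM in vehicle. Most of this sum was COL1A1 and COL1A2, at 8311 and 4750 of 13466 CPM in the TGF-β library of batch 1. Over the 10 markers, the median log2 fold change of TGF-β against IL-4+IL-13 was 0.03. None of the 10 was at 0 in all vehicle libraries. Their part in the RUNX1 difference was not tested. When libraries were scaled to the pan-neuronal markers instead of all genes, the RUNX1 difference was 1.90 (edgeR adjusted p = 0.00010). Those markers had a median log2 fold change of 0.005 between the same groups. This scaling does not separate RUNX1 of neurons from that of mesenchymal cells.

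**Figure D3:**
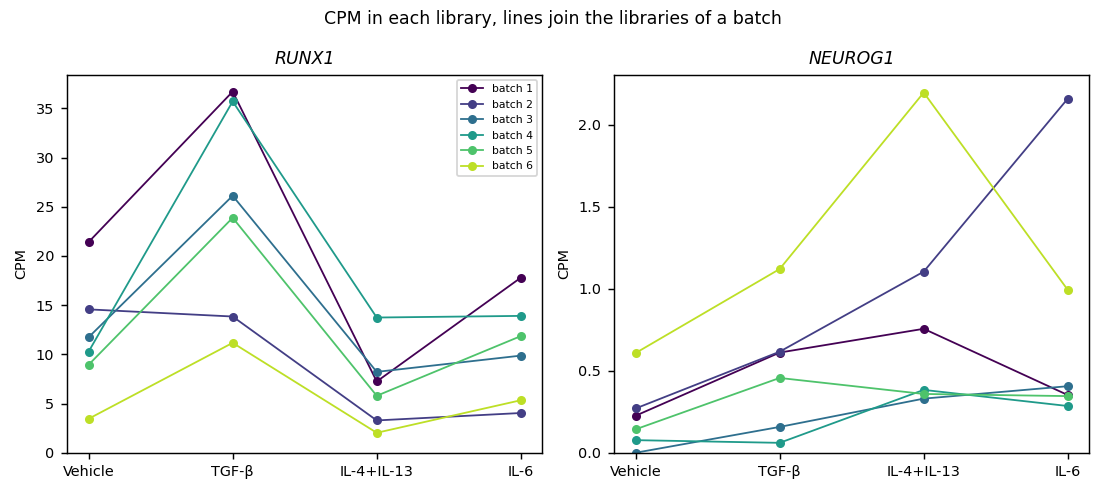
CPM of RUNX1 (left) and NEUROG1 (right) in each library by treatment, with lines joining the 4 libraries of a batch. In 6 of 6 batches the TGF-β library had more RUNX1 than the IL-4+IL-13 library, and both interleukin libraries had more NEUROG1 than vehicle.

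NEUROG1, the neurogenin linked to nociceptor birth, was scarce, with 0 to 79 counts per library. Its lowest, median and highest CPM were 0, 0.184 and 0.608 in vehicle and 0.0605, 0.533 and 1.12 under TGF-β. They were 0.330, 0.569 and 2.20 with IL-4+IL-13, and 0.285, 0.379 and 2.16 with IL-6. The vehicle library of batch 3 held 0 counts, which allows up to 0.0843 CPM (3 counts, counting error only). The groups overlapped, as they did for every member in the comparison of IL-4+IL-13 with vehicle, where 0.286% of all genes had groups without overlap.

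Within batches, NEUROG1 was higher under IL-4+IL-13 than in vehicle in 6 of 6, as 2.28% of all genes were. The log2 fold change was 2.01 ± 0.42 (SE, 95% interval 1.13 to 2.90), or 4.04-fold (edgeR adjusted p = 0.028, DESeq2 0.00066). It was the 1 member of 10 called, against 0.371% of all genes by edgeR and 0.994% by DESeq2. This call was narrow. Without any 1 batch the fold stayed between 1.85 and 2.14 and the adjusted p rose to between 0.052 and 0.14. Without the vehicle library of batch 2 it was 1.89 (adjusted p = 0.064), and without that of batch 4 it was 2.03 (adjusted p = 0.038).

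Under IL-6 NEUROG1 was also higher in 6 of 6 batches, where 1.22% of all genes were, with a log2 fold change of 1.87 ± 0.43 (SE, edgeR unadjusted p = 0.00036, adjusted 0.85). For IL-6 edgeR called 0 of 29377 genes (0%), with 4.77% at an unadjusted p under 0.05, while DESeq2 called 0.408%, NEUROG1 among them (adjusted p = 0.0073). Under TGF-β it was 1.26 ± 0.43 (adjusted p = 0.37), higher in 5 of 6 batches. The difference between TGF-β and IL-4+IL-13 was -0.75 ± 0.40 (adjusted p = 0.49), and that between IL-4+IL-13 and IL-6 was 0.14 ± 0.39 (adjusted p = 1.00), with an interval of -0.67 to 0.96. The genes most like NEUROG1 were ALG13, NOP56 and ITFG2 (r 0.85, 0.84 and 0.83).

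NEUROD1, which follows the neurogenins, had medians of 1.41 CPM in vehicle, 2.56 under TGF-β, 2.40 under IL-4+IL-13 and 2.09 under IL-6. It was higher under TGF-β than in vehicle in 5 of 6 batches, by a log2 fold change of 0.63 ± 0.25 (SE, edgeR unadjusted p = 0.020, adjusted 0.50), most in batch 2 (1.97). Without the vehicle library of batch 2 the value was 0.40. None of its comparisons passed.

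The general sensory and nociceptor factors did not pass in any comparison. POU4F1 had the tightest estimates, with log2 fold changes against vehicle of 0.10 ± 0.14 under TGF-β, 0.13 ± 0.14 under IL-4+IL-13 and 0.18 ± 0.14 under IL-6 (SE), and 95% intervals that together ran from -0.18 to 0.47. TLX3 stood at -0.03 ± 0.20, 0.04 ± 0.20 and -0.07 ± 0.20. ISL1 (-0.13 ± 0.28, -0.29 ± 0.27 and -0.35 ± 0.28) and DRGX (-0.18 ± 0.27, -0.39 ± 0.27 and -0.27 ± 0.27) had their lowest differences in batch 2. Without that batch ISL1 was 0.31, 0.14 and 0.09 and DRGX 0.26, 0.02 and 0.18. PRDM12, the regulator of pain-sensing fate, stood at -0.07 ± 0.29, -0.06 ± 0.29 and -0.45 ± 0.29, and without batch 2 at 0.34, 0.34 and -0.07. Leaving out 1 batch, or the vehicle library of batch 2 or 4, moved its IL-6 value between -0.59 and -0.04. Over these members and NEUROG2, NEUROD1 and RUNX3, the smallest adjusted p against vehicle was 0.50 under TGF-β, 0.61 under IL-4+IL-13 and 0.85 under IL-6.

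**Figure D4:**
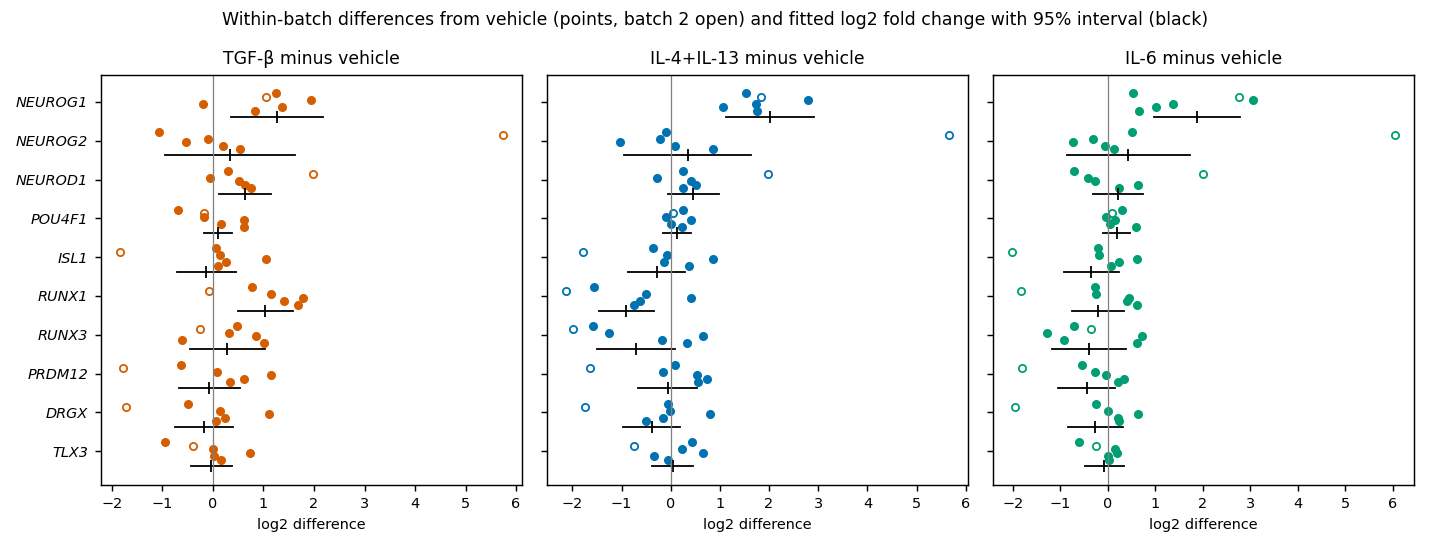
Log2 difference from the vehicle library of the same batch for each factor (rows), with 1 panel per cytokine treatment, 1 point per batch with batch 2 open, and the fitted log2 fold change with its 95% interval in black. The open points stand apart for NEUROG2 on the high side and for ISL1, PRDM12 and DRGX on the low side.

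Among the genes around these factors, few passed. Over all 4 groups at once, RUNX1 (edgeR adjusted p = 0.0014) and NEUROG1 (0.048) differed by treatment, 2 of 10 members, where 1.81% of all genes did. Without any 1 batch, 1 of the 10 did. Of 18 further neurogenic factors, 0 passed against vehicle in the 3 comparisons, where an unadjusted p under 0.05 was reached by 1 with TGF-β, by 1 in the IL-4+IL-13 cultures and by 0 after IL-6. Of 27 other sensory transcription factors, 0 passed against vehicle (3, 4 and 1 at an unadjusted p under 0.05), and ZNF521 in TGF-β cultures lay below IL-4+IL-13 cultures (log2 fold change -0.31 ± 0.06, adjusted p = 0.0059). Of 18 Notch and progenitor genes, SOX9 passed in the direct comparison (0.36 ± 0.10, adjusted p = 0.049).

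Markers of other cells were examined beside these. None of the 12 pan-neuronal markers passed in any comparison, and none had an unadjusted p under 0.05. Of 8 epithelial markers, CDH1 fell with IL-4+IL-13 in 6 of 6 (-1.89 ± 0.34, adjusted p = 0.0096). In the direct comparison CDH1 was higher in TGF-β cultures (1.27, adjusted p = 0.046). Under IL-6 no gene of any list passed, as no gene of the table did by edgeR.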

How the data were processed

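PolyA RNA of 24 libraries, 6 batches by 4 treatments, was sequenced on a NovaSeq instrument. The authors had reads trimmed with Trimmomatic 0.30 and aligned to GRCh38.p14, which the labels call a mouse reference, and deposited raw counts per gene. The aligner, the counter and the strandedness are not given in the sources used here.

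From these counts, CPM were computed with TMM factors, and log2 CPM with a prior count of 2. RPKM used the union of exons in the GENCODE annotation, with a pseudocount of 0.1 on the log scale. Entries reaching 10 counts over all libraries were tested with edgeR 4.0.16 (robust quasi-likelihood, batch and treatment in the model, all libraries in 1 fit) in R 4.3.3, adjusted by Benjamini-Hochberg over 29377 genes, with calls requiring adjusted p below 0.05 together with an absolute log2 fold change above 1. Standard errors were derived from the F statistic. For genes of the lists, "passed" means the adjusted p alone. DESeq2 1.42.0 was the alternative. The labels name the batch of each library, so batch pairs the libraries across treatments. The correlation of a library with the rest of its batch, on deviations from group means, ranged from 0.03 to 0.78. Intervals and floors cover counting error only where stated.

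The members and lists were chosen with earlier results of these data known. Genes named beside the members were those of fixed lists past the adjusted threshold with mean counts of 10 or more, and the 3 of highest r per member among genes with mean counts of 50 or more. In the direct comparison of TGF-β with IL-4+IL-13 the same threshold was used. Some genes of the lists are not reported here. The genes named for batches 1 and 2 were chosen after their values were seen. The tests were checked on simulated counts.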

Additional observations from a re-analysis of the deposited data

Results flagged for a closer look

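Of 70 sets of 6 values examined, the level of each member in each treatment group and its difference from vehicle over the batches, 14 values stood apart from the other 5 by Dixon's criterion. Among independent sets, chance alone would flag about 1 in 20. These sets share libraries and batches, so the 14 flags cannot be weighed against that rate. The flags were not spread evenly, since 11 concern batch 2 and 3 concern batch 1.

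NEUROG2 was flagged most often. Its log2 CPM of 3.91 under IL-4+IL-13 and 4.30 under IL-6 in batch 2 stood above the other libraries of those groups, which reached at most -0.21 and -0.30. Its differences from vehicle in batch 2 were 5.74 under TGF-β, 5.66 under IL-4+IL-13 and 6.05 under IL-6, against at most 0.85 in the other batches. NEUROD1 under IL-4+IL-13 stood apart on the same side in that batch, at 1.97 against at most 0.52.

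On the low side, batch 2 differences from vehicle were -1.84 for ISL1 under TGF-β, -2.02 for ISL1 under IL-6, -1.84 for RUNX1 under IL-6, -1.64 for PRDM12 under IL-4+IL-13 and -1.95 for DRGX under IL-6. All of these set treated libraries against the 1 vehicle library of batch 2 that correlated more with batch 4 than with its own batch.

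TLX3 stood apart in batch 1, where its log2 CPM was -0.11 for vehicle, -1.05 for TGF-β and -0.71 for IL-6, where the other batches lay at 1.75 or above. The part of the pan-neuronal level, which was also lowest in batch 1, was not tested.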

How the results depend on the processing

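Results with batch in the model are compared here with other settings, and values are log2 fold changes unless counts are named. The replicate block is the batch. With no replicate block, 0 members were called in IL-4+IL-13 against vehicle, in TGF-β against IL-4+IL-13 and over any treatment, and all-gene calls fell to 0, 13, 0, 49, 0 and 13 in the 6 comparisons (against vehicle first TGF-β, next IL-4+IL-13, last IL-6, then TGF-β against IL-4+IL-13, TGF-β against IL-6 and IL-4+IL-13 against IL-6). Without the block, TGF-β gave ISL1 0.13, PRDM12 0.15, DRGX 0.11 and TLX3 0.054, and IL-4+IL-13 gave PRDM12 0.035 and TLX3 -0.0077, each with its sign turned. DESeq2 called 1 member in TGF-β against vehicle, 1 in IL-6 against vehicle and 1 in TGF-β against IL-6, and it called 234, 292, 120, 627, 248 and 255 genes where edgeR called 42, 109, 0, 347, 9 and 82. Scaled to the pan-neuronal list, 0 were called in IL-4+IL-13 against vehicle and 1 over any treatment, with 13 genes in all for TGF-β against vehicle and 5 for TGF-β against IL-6. With no low-count filter 1 was called over any treatment. With only the 2 groups compared, IL-4+IL-13 against vehicle had 0, TGF-β against IL-6 had 1 (0 genes in all for TGF-β against vehicle, 25 for IL-4+IL-13, 29 for TGF-β against IL-6), and PRDM12 under IL-4+IL-13 turned to 0.044. Over batches 1, 3, 5 and 6, a choice made after seeing the data, the counts of members were 1 in TGF-β against vehicle, 0 in IL-4+IL-13 against vehicle, 1 in TGF-β against IL-6 and 1 over any treatment. There NEUROG2 -0.028, ISL1 0.14, PRDM12 0.11 and DRGX 0.042 under TGF-β, PRDM12 0.30 under IL-4+IL-13, and NEUROD1 -0.030, RUNX1 0.11 and DRGX 0.081 under IL-6 turned sign, as did NEUROG1 in TGF-β against IL-6 (0.024). None of these members was called in those comparisons in either setting. The mature minus early difference was 1.60 with a pseudocount of 1.

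Leaving out 1 batch, or the vehicle library of batch 2 or 4 (the latter chosen after seeing the data), gave 0 to 1 members called in TGF-β against vehicle, 0 to 1 in IL-4+IL-13 against vehicle, 0 to 1 in TGF-β against IL-6, 1 over any treatment, and 0 to 6 for the correlation with the pan-neuronal level (adjusted over the 10 members). Genes called in all then ranged from 1 to 56, 60 to 152, 0, 196 to 444, 0 to 37 and 52 to 109 in the same order of comparisons. The members whose sign turned ranged as follows. Under TGF-β, NEUROG2 -0.19 to 0.75, POU4F1 -0.014 to 0.20, ISL1 -0.35 to 0.31, PRDM12 -0.34 to 0.34, DRGX -0.42 to 0.26, TLX3 -0.19 to 0.085. Under IL-4+IL-13, NEUROG2 -0.18 to 0.79, ISL1 -0.48 to 0.16, PRDM12 -0.21 to 0.34, DRGX -0.60 to 0.053, TLX3 -0.079 to 0.20. Under IL-6, NEUROG2 -0.15 to 0.85, NEUROD1 -0.079 to 0.39, ISL1 -0.54 to 0.092, RUNX1 -0.36 to 0.16, DRGX -0.47 to 0.18, TLX3 -0.17 to 0.035. In IL-4+IL-13 against IL-6, NEUROG1 -0.061 to 0.49. The cause of these changes was not tested. The call of RUNX1 in TGF-β against IL-4+IL-13 was lost in no other setting tried than the one with no block (adjusted p = 0.14). At 0 to 79 counts for NEUROG1 and 4 to 46 for RUNX3, counting error limits what could be detected.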
